A study of Arabidopsis thaliana with 3 samples.

Results

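The probe sets described here had no value on the wild-type array and a signal of 100 or more on each of the 2 cwinv4-1 arrays. This held for 80 of 14338 probe sets (0.558%), with the 37 control probe sets left out. The values that chose them are the same signals given below, so those signals are a description and carry no test. A probe set is a group of short probes that together read 1 transcript, and its signal is a brightness in arbitrary array units.

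The arrays measured lateral nectaries of Arabidopsis thaliana, ecotype Columbia-0, taken from plants 30 to 35 days old. All 3 samples came from plants kept in 16 h light and 8 h dark, with harvest 4 to 8 h after dawn. The tested plants carried the cwinv4-1 allele (2 samples) and the others were wild-type (1 sample). Each sample was a pool of about 250 to 300 glands, cut by hand from flowers of stages 14 to 15, when nectar is secreted. Both cwinv4-1 samples are labelled as the same mutant, though the title of replicate 1 reads cwinv4-1a, and whether they come from separate lines is not given. The question behind the design was how transcripts differ in glands of a mutant that makes no nectar.

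A nectary loads sucrose through SWEET9, an exporter, and the cell wall invertase encoded by CWINV4 splits it outside the cell into glucose and fructose, which draws water out as nectar. The gland builds starch before the flower opens and breaks it down as secretion starts. A gene whose transcript is scarce in such a gland may be read on one array and left without a value on another. In pooled glands, fewer cells that express a gene and less RNA per cell cannot be told apart.

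The 3 arrays gave values to 12441 (cwinv4-1 replicate 1), 11365 (cwinv4-1 replicate 2) and 12455 (wild-type) probe sets, with median signals of 500.8, 549.8 and 507.8 in that order. Cwinv4-1 replicate 2 stood apart. Values were missing there for 20.7% of probe sets, where replicate 1 lacked 13.2% and the wild-type array 13.1%, and 5 of 6 control pairs for actin, GAPDH and ubiquitin had their highest 3′ to 5′ signal ratio there. All 18 control probe sets of bacterial or phage sequence read higher on replicate 2 than on replicate 1. Of 8 nectary markers 2 had a named probe set, and both were bright on every array. SWEET9 had a signal of 16300 and 38100 on the cwinv4-1 arrays and 19700 on the wild-type array, and JMT, a jasmonate methyltransferase, 12400 and 2368 against 11900. None of the named probe sets reads CWINV4, so the mutated gene was not analysed here.

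Among the 80 probe sets, 44 carried 1 gene name, 2 carried several and 34 were unnamed here. The named genes with the highest signals were AT3G13760, AT1G27430, AT2G19970, AT3G10190, AT3G56760 and SBE2.2. They covered a C1-domain protein, a GYF-domain protein, a PR-1-like secreted protein, a calcium sensor, a protein kinase and an enzyme of starch synthesis. Most of the others were dim. Signals ran from 103.0 to 680.6 with a median of 172.6 on cwinv4-1 replicate 1, and from 129.4 to 1073 with a median of 266.9 on replicate 2. Only 3 of the 80 lay above the array's median on replicate 1 and 5 on replicate 2, while 48 and 40 lay under its 25th percentile of 192.8 and 266.4.

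**Figure D1:**
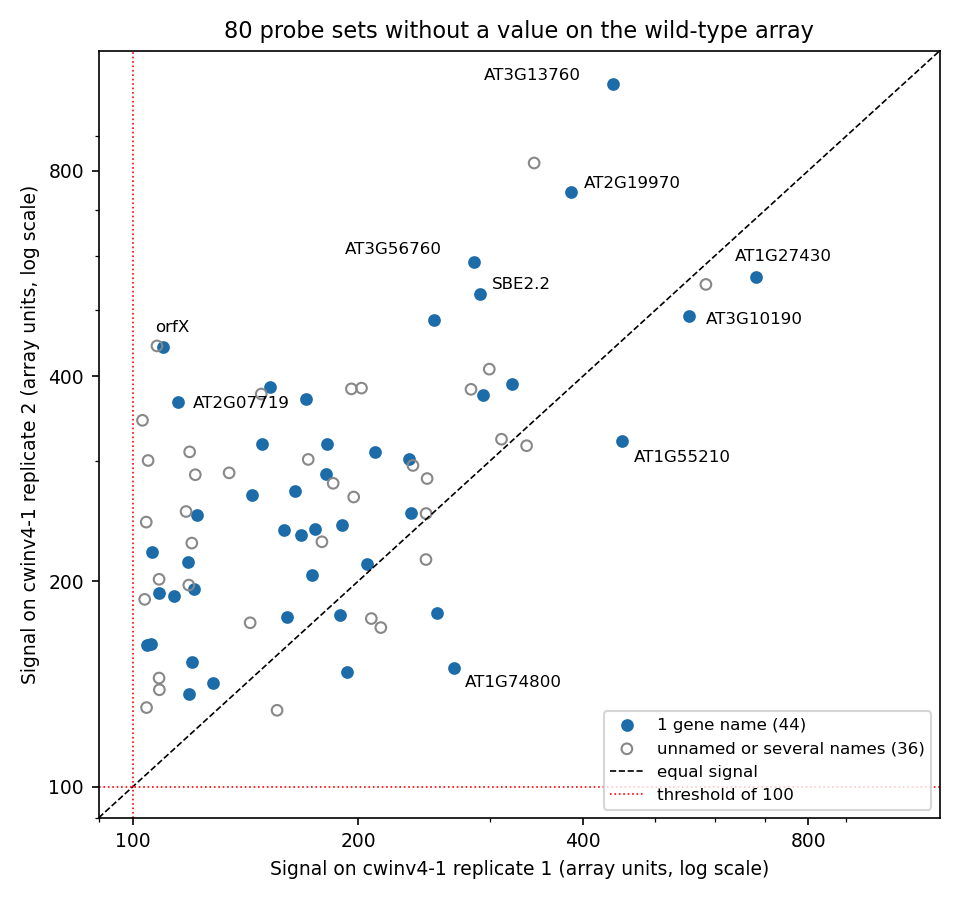
Each point is one of the 80 probe sets, with its signal on cwinv4-1 replicate 1 on the x axis and on cwinv4-1 replicate 2 on the y axis, both in array units on a log scale. Filled points carry 1 gene name (44) and open points none or several (36), and 67 of the 80 lie above the dashed line of equal signal.

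Genes of signal perception and relay made up 7 of the 44 named ones. Role groups were assigned to these 44 genes only, so no count per role has a share over all named probe sets beside it. AT3G10190, a calmodulin-like protein that binds calcium, had signals of 554.0 and 490.7 on cwinv4-1 replicates 1 and 2 and no value on the wild-type array. AT3G56760, a protein kinase related to the calcium-dependent kinases, had 285.9 and 587.4. The calmodulin-like gene was as bright as a typical probe set on replicate 1, whereas the kinase read brighter on replicate 2. AFR, an F-box protein of far-red light signalling, had 181.6 and 317.5. AT3G44450, an inhibitor of the blue-light receptors called cryptochromes, had 173.6 and 204.6. The remaining 3 were AT4G34220, a receptor-like kinase, AT4G16880, a leucine-rich repeat protein, and AT5G03700, a lectin-domain protein, and over the 7 genes the medians were 181.6 and 250.3.

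Proteins of the cell wall or the secretory path numbered 8, with medians of 181.8 on cwinv4-1 replicate 1 and 313.8 on replicate 2. AT2G19970, of the PR-1-like family of cysteine-rich secreted proteins, had signals of 386.0 and 744.9. The dirigent family, whose proteins guide the coupling of phenolic radicals, was present with 2 genes. AT1G55210 had 450.4 and 321.0, and AT3G13660 had 152.5 and 385.3. These dirigent genes ran in opposite order on the mutant arrays, and neither had a value on the wild-type array. AT2G05540, a glycine-rich protein, had 211.0 and 309.5. The group also held AT4G26490, a hydroxyproline-rich glycoprotein, AT1G74800, a galactosyltransferase, AT1G75890, a GDSL-type lipase, and AT3G04150, a germin-like protein. AT1G75890 and AT3G04150 lay close to the threshold, with 105.8 and 104.5 on replicate 1.

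Metabolic enzymes numbered 6. All had a higher signal on cwinv4-1 replicate 2 than on replicate 1, as did 37 of the 44 named genes, so this order was not particular to enzymes. SBE2.2, a branching enzyme that adds side chains to starch, had 291.0 and 528.6. UGT76C2, which attaches glucose to cytokinins and so inactivates them, had 181.3 and 287.3. AT3G48420, a hydrolase of the haloacid dehalogenase family, had nearly equal signals of 235.4 and 251.6. The other 3 were AT2G16760 of the phosphotriesterase family, AT3G24360 of the crotonase family and AT2G29320, a Rossmann-fold dehydrogenase, with signals from 118.6 to 164.6 on replicate 1 and from 213.4 to 271.7 on replicate 2.

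Membrane transport and lipid-binding proteins were represented by 4 genes, with signals of 119.0 to 233.7 on cwinv4-1 replicate 1 and 136.5 to 302.3 on replicate 2. AT3G11320, of the nucleotide-sugar transporters that feed glycosylation in the Golgi, was the brightest, with 233.7 and 302.3. AT3G51670, a patellin that binds membrane lipids, had 190.5 and 241.6. AT1G68600, of the aluminium-activated malate transporter family of anion channels, had 144.1 and 267.8. AT1G22570, of the nitrate and peptide transporter type, was the dimmest of the 44 named genes by its mean over both arrays, at 119.0 and 136.5.

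Another 6 genes act on proteins, chromatin or the cytoskeleton. AT1G27430, which holds a GYF domain that binds proline-rich peptides, had the highest signal of the 80 on cwinv4-1 replicate 1, with 680.6, and 558.6 on replicate 2. AT4G20310, a protease of the site-2 family that cuts inside membranes, had 252.8 and 483.8, and AT2G15580, a RING-domain protein, had 294.3 and 375.2. AT1G63640, a kinesin-like motor protein, was the closest match between the mutant arrays among the named genes, at 205.4 and 212.0. AT5G23405, an HMG-box protein, and AT3G13680, an F-box protein, were dimmer, at 113.4 and 119.9 on replicate 1.

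The genes with no role given here numbered 11, of which AT3G13760, AT1G05540, AT1G11700, AT5G01610 and AT1G15290 hold conserved domains of unknown or unspecific function. AT3G13760, rich in cysteine and histidine in its C1 domains, had the highest signal of the 80 on cwinv4-1 replicate 2, with 438.5 on replicate 1 and 1073 on replicate 2. AT1G25275 had 321.2 and 389.3, and AT1G05540 had 170.4 and 370.7. AT1G61920 read nearly the same on both arrays, at 189.3 and 178.5. The group also held AT3G44140, AT4G25170, AT1G49110 and AT1G62422, and its medians were 167.8 and 195.0.

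Sequences of mitochondrial type gave the named probe sets with the widest gap between the mutant arrays. The probe set for orfX, an open reading frame of the mitochondrial genome, had 109.8 on cwinv4-1 replicate 1 and 441.5 on replicate 2, a log2 difference of 2.01. AT2G07719, a locus in the stretch of chromosome 2 that holds a copy of mitochondrial DNA, had 115.0 and 367.0, a log2 difference of 1.67. Both probe sets end in _s_at, which marks probes shared by several transcripts, so their signal cannot be assigned to a single gene copy. AT3G13660 came next among the named genes, with a log2 difference of 1.34.

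**Figure D2:**
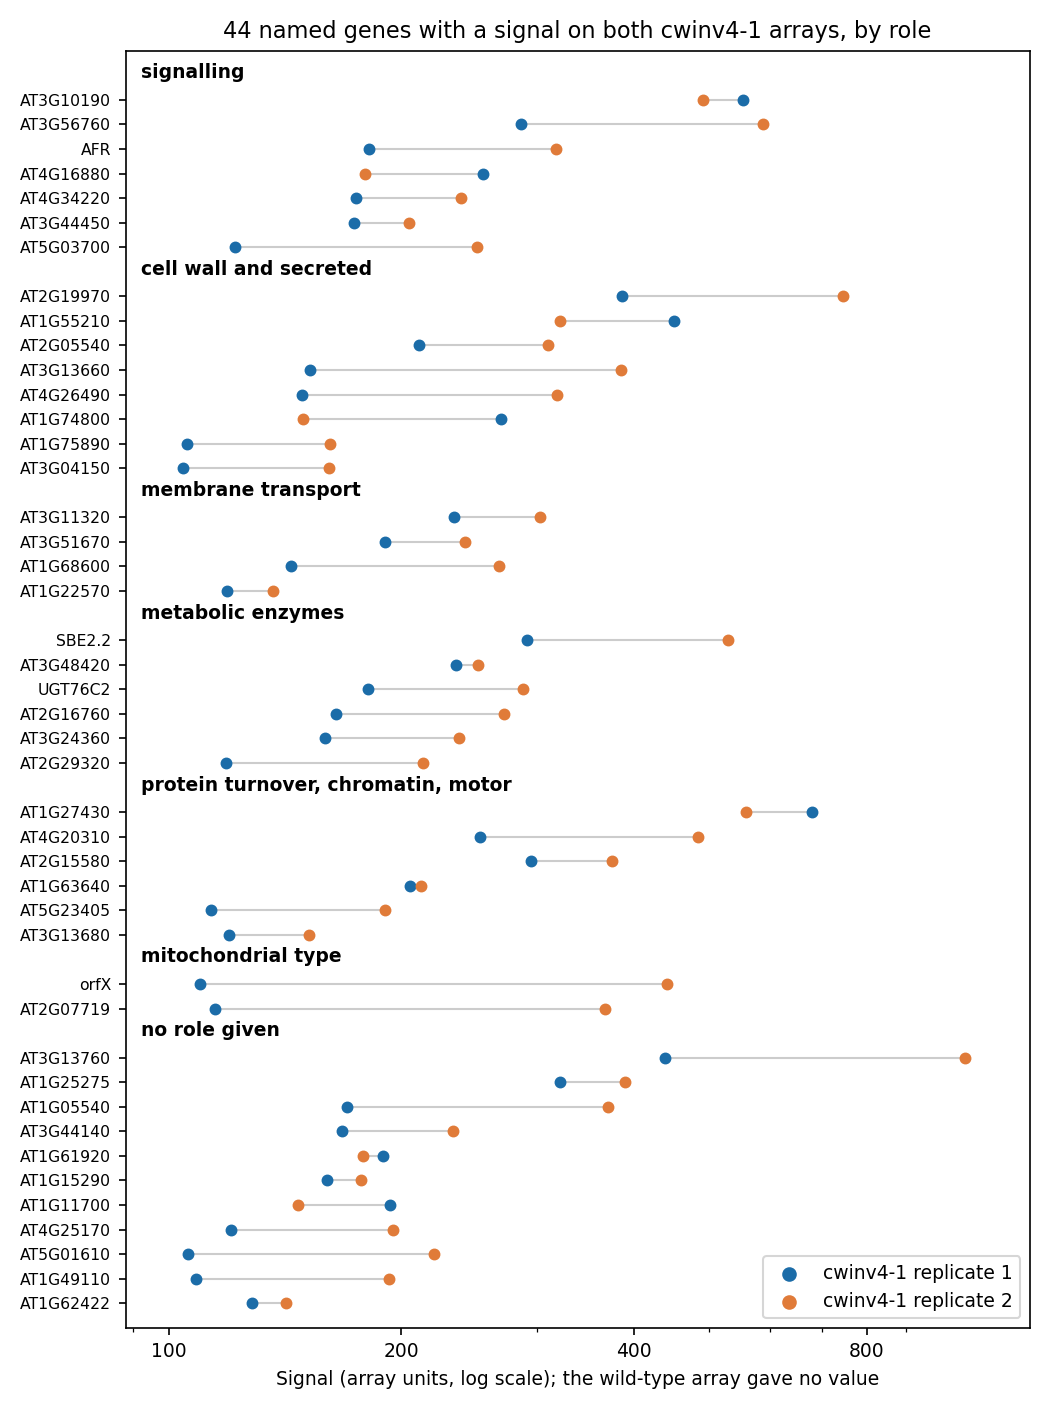
Signals of the 44 named genes in array units on a log scale, grouped by role, with cwinv4-1 replicate 1 in blue and replicate 2 in orange and a grey line joining them. The wild-type array gave none of them a value. The lines are short for AT1G63640 (205.4 and 212.0) and long for orfX (109.8 and 441.5).

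Among the unnamed probe sets, 256185_at was the brightest, with 584.0 and 545.1 on cwinv4-1 replicates 1 and 2. It was followed by 260689_at, with 344.1 and 821.4, by 262254_at, with 299.7 and 409.5, and by 261106_at, with 283.3 and 382.5. Over the 36 probe sets without a single name the medians were 163.8 and 280.8, close to the 174.3 and 251.0 of the 44 named ones. Of the 80, 7 ended in _s_at and 1 in _x_at, together 10%, against 4.37% of all probe sets with a suffix for shared or similar sequence.

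The mutant arrays differed within the 80. Replicate 2 read higher in 67 of them and replicate 1 in 13, with a median log2 difference (replicate 2 minus replicate 1) of 0.58 and a range from -0.85 to 2.04. The lowest value belonged to AT1G74800, at 269.1 and 149.1. In 39 probe sets the signals lay within 1.5-fold of each other, and in 19 they were over 2-fold apart. Across the 80 the log2 signals of the mutant arrays had a Pearson correlation of 0.59 and a Spearman correlation of 0.50, a description over probe sets that share both arrays. Between the same outer limits of signal, 4790 probe sets had a value on all 3 arrays and 100 or more on both mutant arrays. Of these, 55.3% read higher on replicate 2, with a median log2 difference of 0.07, against 83.8% of the 80. The sets were not matched by signal within these limits. The 80 had a median geometric mean of 207.1 over the mutant arrays. The 4790 had a median wild-type signal of 360.6, which is a different measure, so these medians do not compare the levels directly. Ranked among the values given on each array, the 80 had median percentiles of 22.53 on replicate 1 and 25.03 on replicate 2. Replicate 1 gave 12441 values, 1447 of them under 100, and replicate 2 gave 11365, with 357 under 100. The percentiles thus rest on unlike sets of values and do not compare the arrays directly. The part of the array differences of replicate 2 in the higher signals of the 80 there was not tested.

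The same pattern was counted with the missing value on a mutant array. A missing value on cwinv4-1 replicate 1 with 100 or more on the 2 other arrays occurred in 43 probe sets (0.3% of all), and a missing value on cwinv4-1 replicate 2 in 953 (6.65%). The 80 without a value on the wild-type array were thus 1.86 times as many as the 43 and far fewer than the 953. The first ratio moved with the threshold, from 1.17 at a signal of 50 (158 against 135 probe sets) to 3.57 at 200 (25 against 7), and was 1.38 for probe sets with 1 gene name (44 against 32). As a share of the probe sets that reached 100 on the other arrays, the wild-type array lacked a value for 0.817% of 9787 (exact 95% binomial interval 0.649 to 1.02), replicate 1 for 0.439% of 9787 (0.318 to 0.591) and replicate 2 for 9.0% of 10586 (8.46 to 9.56). These intervals treat probe sets as independent draws and hold no spread between samples, and a single wild-type array gives none. No value on either mutant array and 100 or more on the wild-type array occurred in 220 of 14338 probe sets. That count asks for a signal on 1 array only, where the 80 needed it on 2, so the counts are not alike.

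How often a value was missing depended on the signal of the other arrays. Where the geometric mean of the cwinv4-1 signals was 100 to 150, the wild-type array lacked a value for 13 of 247 probe sets (5.26%). The share was 3.94% at 150 to 200, 2.59% at 200 to 300 and 0.564% at 300 to 500, and at 500 or more it was 6 of 6099 (0.0984%). For replicate 1 the shares in the same order were 4.23%, 3.10%, 0.565%, 0.281% and 0.0813%. At 200 to 300, the class with the most of the 80, this was 28 of 1083 probe sets without a wild-type value and 6 of 1062 without one on replicate 1. The shares are a description, since the same values chose the 80, and no level was tested against another. For replicate 2 the share was 39.9% in the lowest class and 1.02% in the highest.

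**Figure D3:**
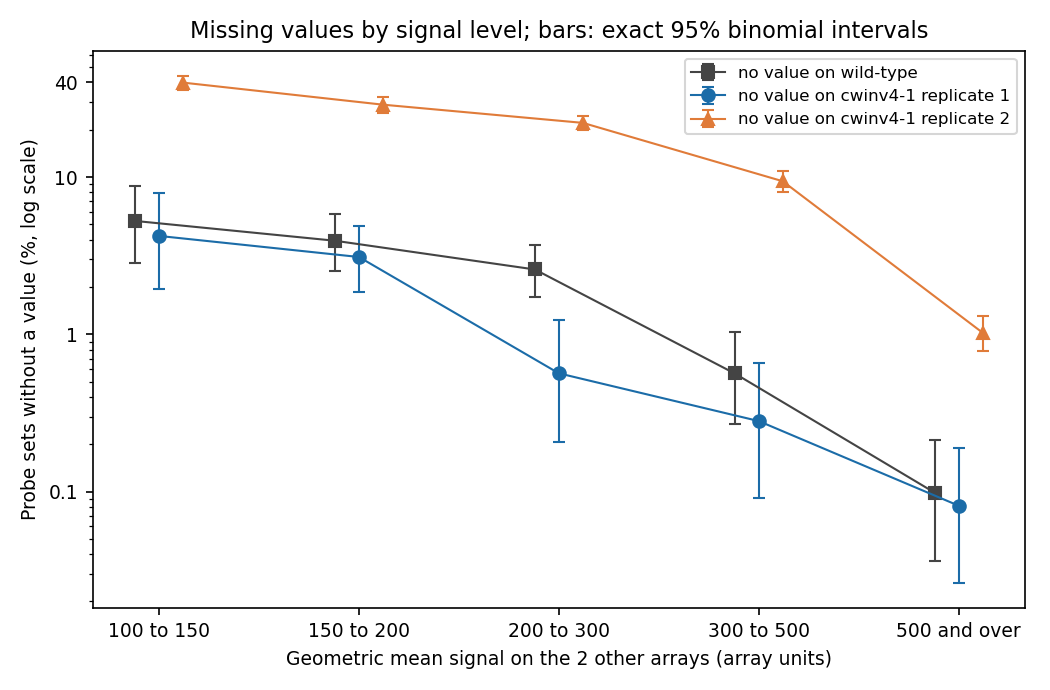
Share of probe sets without a value on each array, in percent on a log scale, by the geometric mean signal of the 2 other arrays in array units. Squares stand for the wild-type array, circles for cwinv4-1 replicate 1 and triangles for replicate 2, and bars are exact 95% binomial intervals. The wild-type share is 5.26% in the lowest class and 0.0984% in the highest, and replicate 2 lies above both other arrays throughout.

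What a missing value stands for is not given. The wild-type array did give 1330 values under 100, down to 12.3. Of the 4790 probe sets in the signal range of the 80 that had a wild-type value, 102 (2.13%) read under 100 on that array, and 59 (1.23%) read under 1/2 of the lower mutant signal. Their wild-type signals had a median of 360.6. At cwinv4-1 levels of 200 to 300, where 28 of the 80 lie, the wild-type signals of 1055 other probe sets had a median of 246.8 and a 5th to 95th percentile range of 126.1 to 445.3. No fold change was computed for the 80, which have no wild-type value to compare.

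**Figure D4:**
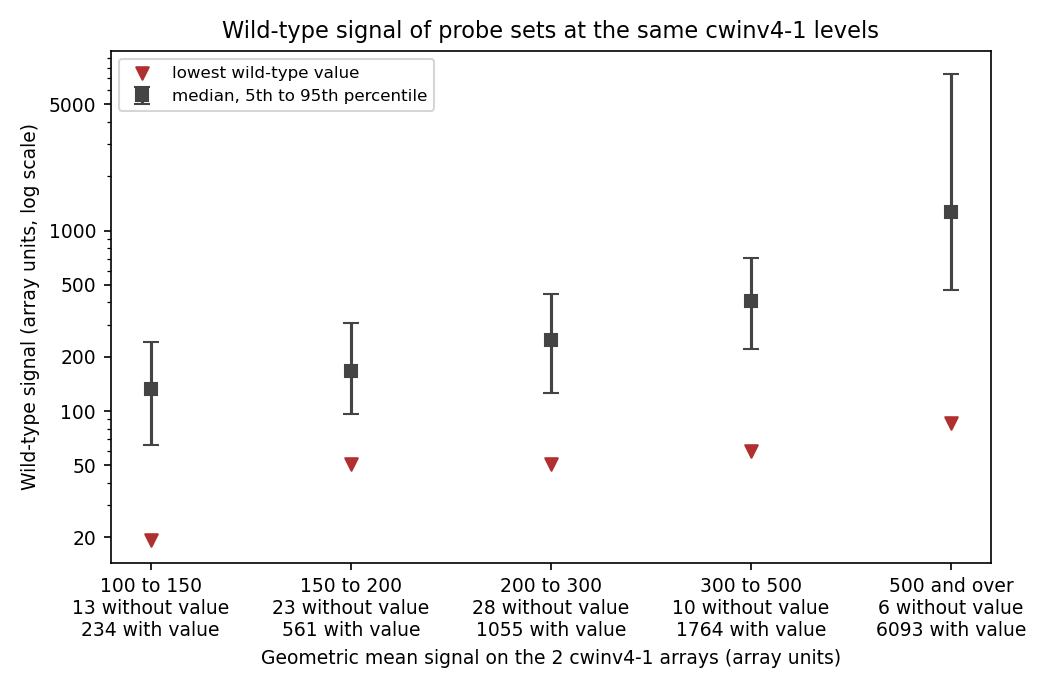
Wild-type signal, in array units on a log scale, of probe sets with a value on all 3 arrays, by the geometric mean of their cwinv4-1 signals. Squares are medians with bars from the 5th to the 95th percentile, triangles are the lowest values, and the labels count the probe sets without and with a wild-type value. In the class of 200 to 300 the wild-type median is 246.8, and 28 probe sets lack a value.

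Many probe sets lay near the threshold of 100. Just inside it were 246972_s_at, at 103.0 and 344.5, 251682_s_at, at 103.7 and 188.2, and 258560_at, at 104.2 and 244.3. Just outside were AT3G06870, at 99.7 and 157.6, AT5G50140, at 98.4 and 274.4, and AT1G02180, at 97.6 and 193.4. In each of these 6 the lower signal was that of replicate 1. A total of 223 probe sets had values on both mutant arrays and none on the wild-type array. Of the 143 that were not counted, 78 had their lower signal between 50 and 100 and 65 under 50. A further 470 probe sets without a wild-type value reached 100 on replicate 2 and had no value on replicate 1, and 147 reached 100 on replicate 1 and had no value on replicate 2.

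Relatives and pathway partners of the named genes were measured in small part. The lists for starch, cytokinin, light signalling, malate channels, galactosyltransferases, patellins and dirigent proteins held 97 loci, of which 20 had a named probe set. Of these 20, 9 belong to the 80. Each list was drawn up around named genes of the 80, so this overlap was set in advance and carries no result. The other 11 included 7 with a value on all 3 arrays, and 0 of these 7 were 2-fold higher or 2-fold lower than wild-type on both mutant arrays, against 1.39% higher and 0.9% lower among all 10334 such probe sets. Beside SBE2.2, the starch genes were APL3, a subunit of ADP-glucose pyrophosphorylase, with 404.6 and 338.4 on the cwinv4-1 arrays and 389.8 on the wild-type array, and PWD, a kinase that phosphorylates starch for its breakdown, with 661.7 and 453.3 against 879.7. APL4 had 37.5 on replicate 1, no value on replicate 2 and 65.1 in wild-type. DPE1, a glucanotransferase, had 102.7 on replicate 1, no value on replicate 2 and 161.9 in wild-type. No other starch gene of the list that had a probe set was missing on the wild-type array.

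AT3G52740, the close relative of the cryptochrome inhibitor AT3G44450, had signals of 141.9 and 244.3 on the cwinv4-1 arrays against 82.7 on the wild-type array. The log2 differences from wild-type were 0.78 on replicate 1 and 1.56 on replicate 2. AT3G44450 also read higher on replicate 2 than on replicate 1, as did most of the probe sets described here, and had no wild-type value. Its signals are among those that chose these probe sets, so the shared order carries no result. ARR16, a response regulator of cytokinin signalling, had 112.3 and 103.5 against 79.1. Among the galactosyltransferases related to AT1G74800, AT3G06440 had 300.2 and 246.4 against 253.9, AT5G62620 had 177.3 and 171.7 against 204.9, and AT1G27120 had no value on any array. The patellin AT1G72160 had 902.3 and 770.6 against 901.2. The dirigent gene AT2G21110 had no value on any array.

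Of 22 genes listed as markers of other tissues 6 had a named probe set, for pollen, carpel, green tissue and guard cells. None of those for tapetum, phloem or xylem did. Whether the glands themselves express these genes was not examined, so their signal does not measure other tissue in the samples. All 6 had a value on every array, so 0 of them belong to the 80, which at a background of 0.558% says little. Their summed signal was 20251 and 16486 on cwinv4-1 replicates 1 and 2 against 22569 on the wild-type array, most of it from the photosynthesis genes LHCB4.1, with 7140 and 5208 against 8107, and RCA, with 10100 and 9857 against 11200. The pollen genes and SPT differed mainly on replicate 2, where they read lower than on both other arrays. AT3G07820, a pollen polygalacturonase, had 569.1 and 128.2 against 658.0, and TUA1, a pollen tubulin, 1570 and 724.9 against 1526. SPT, a carpel regulator, had 767.7 and 390.9 against 877.3, and FAMA, a guard cell regulator, 104.4 and 176.5 against 201.1. Of these 6, FAMA alone read higher on replicate 2 than on replicate 1.

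In the genome, 43 of the 44 named genes matched a RefSeq locus. They were spread over chromosomes 1 to 5 as 14, 7, 12, 5 and 5 genes, which is 0.683%, 0.570%, 0.751%, 0.435% and 0.262% of the named probe sets of each. Some lay near each other. AT3G13660, AT3G13680 and AT3G13760 on chromosome 3, a dirigent, an F-box and a C1-domain gene, had 5 and 8 protein-coding genes between neighbours, and SBE2.2 and AT5G03700 on chromosome 5 had 4 between them. No other named genes of the set had 10 or fewer between them. How often other named genes lie this near each other was not counted, so no grouping can be read from these distances. None of the 43 loci had a second probe set with 1 gene name. Whether any of the 5966 unnamed probe sets, or the 335 with several names, also reads these genes was not examined.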

How the data were processed

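RNA of 2 cwinv4-1 samples and 1 wild-type sample was hybridised to 1-colour Affymetrix arrays. Per the labels' protocols, 500 ng of total RNA went through a single round of amplification. The deposited table holds 1 linear signal intensity per probe set and array, made with MAS5 per the submitters' processing notes, with version and target level not given in the sources used here. According to the design text, further wild-type nectary arrays were part of the normalization. A cell without a value reads null, with its meaning not given, and was kept as missing.

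Signals were used as deposited, with python 3.11.15, pandas 2.3.3, numpy 2.4.6 and scipy 1.17.1. Counting was tested on simulated data with known patterns. GEO's platform annotation gave 1 gene name to 8037 of 14338 probe sets, and 8000 of these matched RefSeq loci of assembly TAIR10.1, used for names and gene order only. Roles are general background knowledge and not taken from the files. The members and lists were chosen with earlier results of these data known. No test was run, since the rule uses the only contrast. Values on each array are given for the 15 brightest named genes, up to 3 per role, those most and least alike between the mutant arrays, and the 4 brightest unnamed probe sets, and for further genes chosen after their values were seen. Alternatives were other thresholds, median centring, quantile normalization, counting genes, leaving out probe sets with shared sequence and leaving out each mutant array. The number of arrays limits the precision.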

Additional observations from a re-analysis of the deposited data

Results flagged for a closer look

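The array's control features were not counted above, and most of them stood higher on cwinv4-1 replicate 2 than on the wild-type array, with 17 of the 18 bacterial or phage probe sets higher and the highest 3′ to 5′ ratio of the 3 arrays in 5 of 6 pairs. In 1 GAPDH pair the 3′ signal divided by the 5′ signal gave 11.17 on replicate 2 and 2.87 on replicate 1, against 4.81 on the wild-type array. The bacterial and phage probe sets had a median ratio to wild-type of 1.667 on replicate 2 and 0.732 on replicate 1. Their part in the higher signals of the 80 probe sets on replicate 2 was not tested.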

How the results depend on the processing

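The count of 80 probe sets without a wild-type value depended on the threshold, with 158 at a signal of 50, 25 at 200, 21 at 222 (the 25th percentile of all values) and 2 at 500. As a share of those at the threshold on both mutant arrays it was 1.523% at 50 and 0.2929% at 200. Counted as genes with 1 name it was 44. With only 1 mutant array asked for a signal, it ranged from 227 (without replicate 2) to 655 (without replicate 1). For a missing value on cwinv4-1 replicate 1 the count of 43 became 135, 7, 4 and 0 at the same thresholds of 50, 200, 222 and 500, and the 0 of 5485 allows a share of up to 0.0547%. For replicate 2 the count of 953 became 417 at 200, 341 at 222 and 39 at 500, and 552 as genes. In total 13 of 30 alternatives stayed within 1.5 times the count or within the interval of the share. Median centring kept all 80 and quantile normalization 77, among 83 and 94. No paired analysis was made, since a shared replicate number does not state a pairing of samples and no test was run.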
